A study of Mus musculus with 6 samples.

Results

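The T cell receptor alpha variable genes are the Trav segments of the mouse alpha locus on chromosome 14, taken here with Trac, the gene of the alpha constant region. The members were the genes whose symbol was Trac or began with Trav and a number, which gave 129 genes (128 Trav segments and Trac) of the 45777 genes listed. The RNA was that of splenic CD4+ T cells separated by the surface protein Lrig1 into CD4+Lrig1+ and CD4+Lrig1- cells (Lrig1+ and Lrig1- for short). The mice were female, 7 weeks old and of the inbred C57BL/6 strain, and the labels name no treatment or altered allele in either group. The labels list 3 samples per group, and 2 libraries per group were analysed, in 2 tables that hold 1 library of each group (called set 1 and set 2). The methods describe the study's data in general as biologically independent, but the mice behind each library are not named, and the p-values measure the spread between these 4 libraries.

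An alpha chain gene is made in the thymus, where 1 Trav segment is cut and joined to 1 Traj segment upstream of Trac, and the transcript is spliced to the constant exons. The segment that a T cell has joined sets a large part of what its receptor can bind, so the mixture of Trav transcripts in a population reflects the receptors of its cells. Most conventional CD4 T cells use diverse segments, while natural killer T (NKT) cells of the invariant kind use Trav11 joined to Traj18, and mucosal-associated invariant T (MAIT) cells use Trav1 joined to Traj33. Segments with dv in their names can also be joined in the delta chain of gamma delta T cells. Most of the Trav families of C57BL/6 mice stand in duplicated copies, whose names differ by a d or an n, and these can be nearly the same in sequence.

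The 128 segments lay between 243 and 1793 kb from Trac, all on GRCm38 chromosome 14, and fell into 23 families and 57 sets of copies. 40 sets held more than 1 copy and together 111 segments. Across the 102 pairs of copies, the identity of the V exon (the exon that encodes the variable domain) had a median of 97.9%, and it was 100% in 24 pairs. The V exons that carry the largest differences between the groups are shown first, because the values of such copies depend on how reads were divided among them. The sequences were read from the GRCm38 genome at the exons of the GENCODE M21 annotation, 5′ to 3′ on the plus strand. In the Trav11 set, the first 290 bases of the exon are given at chr14:53519569-53519858 for Trav11, at chr14:52824623-52824912 for Trav11d and at chr14:53135388-53135677 for Trav11n, and capitals mark the positions at which Trav11 and Trav11n differ.

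Trav11: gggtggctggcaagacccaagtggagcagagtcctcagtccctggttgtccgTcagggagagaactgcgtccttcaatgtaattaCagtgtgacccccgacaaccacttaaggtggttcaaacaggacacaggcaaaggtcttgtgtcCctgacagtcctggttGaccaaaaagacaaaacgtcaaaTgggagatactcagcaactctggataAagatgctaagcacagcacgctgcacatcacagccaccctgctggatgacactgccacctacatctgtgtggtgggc
Trav11d: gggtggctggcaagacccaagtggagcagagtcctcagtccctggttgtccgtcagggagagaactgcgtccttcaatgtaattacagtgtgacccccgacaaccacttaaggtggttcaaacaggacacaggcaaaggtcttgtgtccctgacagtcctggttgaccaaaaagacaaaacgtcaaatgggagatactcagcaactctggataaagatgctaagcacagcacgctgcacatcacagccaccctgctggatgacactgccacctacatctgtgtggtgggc
Trav11n: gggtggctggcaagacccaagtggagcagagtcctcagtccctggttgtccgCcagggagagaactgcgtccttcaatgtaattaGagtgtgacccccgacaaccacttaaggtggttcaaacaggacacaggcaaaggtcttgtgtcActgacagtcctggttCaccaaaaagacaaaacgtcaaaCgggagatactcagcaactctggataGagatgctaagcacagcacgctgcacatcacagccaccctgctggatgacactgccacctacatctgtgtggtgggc

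Trav11 and Trav11d had the same 290 bases, so a read within this exon cannot be given to either of them by its sequence, and their values are uncertain as a split of 1 signal. Trav11n differed from Trav11 at 6 positions (T53C, C86G, C149A, G165C, T188C and A214G, with Trav11's base first and positions counted from 1 at the 5′ end shown). The Trav11n transcript has a stop codon in frame at codon 46, and neither Trav11 nor Trav11d has one. In the Trav14-1 set, the first 300 bases of the exon are given at chr14:52855855-52856154 for Trav14d-1, at chr14:53166867-53167166 for Trav14n-1 and at chr14:53554247-53554546 for Trav14-1, with capitals at the positions where Trav14d-1 and Trav14-1 differ.

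Trav14d-1: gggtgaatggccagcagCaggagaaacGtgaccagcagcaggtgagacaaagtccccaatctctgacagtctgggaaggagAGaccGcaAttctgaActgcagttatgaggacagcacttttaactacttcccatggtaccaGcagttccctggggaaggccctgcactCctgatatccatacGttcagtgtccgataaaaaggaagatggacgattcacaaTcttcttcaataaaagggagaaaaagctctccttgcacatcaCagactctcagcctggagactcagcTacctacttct
Trav14n-1: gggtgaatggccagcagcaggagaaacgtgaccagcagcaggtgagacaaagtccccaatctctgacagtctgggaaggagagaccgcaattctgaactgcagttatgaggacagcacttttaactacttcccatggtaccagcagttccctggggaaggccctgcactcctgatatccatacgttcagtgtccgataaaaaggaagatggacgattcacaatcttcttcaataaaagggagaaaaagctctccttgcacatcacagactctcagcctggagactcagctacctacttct
Trav14-1: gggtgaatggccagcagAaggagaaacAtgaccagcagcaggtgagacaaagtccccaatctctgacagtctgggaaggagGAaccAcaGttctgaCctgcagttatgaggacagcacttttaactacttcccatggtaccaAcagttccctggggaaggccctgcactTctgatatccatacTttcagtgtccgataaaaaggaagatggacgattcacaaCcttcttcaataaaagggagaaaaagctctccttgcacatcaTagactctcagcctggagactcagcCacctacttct

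Trav14d-1 and Trav14n-1 were the same over the whole exon of 312 bases, and Trav14-1 differed from them at 13 positions. Copies with the same exon did not always have like counts: of the 24 identical pairs, 2 had no counts, 1 had a single count on each copy, and 2 of the other 21 had summed counts within 2% of each other. Those 2 were Trav7d-5 and Trav7n-5 (201 and 199 counts over the 4 libraries) and Trav11 and Trav11d (629 and 633 counts), while Trav14d-1 had 1701 and Trav14n-1 had 1544.

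The libraries held 44865070 to 59977951 estimated counts on genes, of which the 129 members took 0.102% to 0.151%. The set separated the libraries more than the group did: across the 16123 genes tested, log2(CPM + 1) correlated at 0.978 and 0.976 between the groups within a set and at 0.936 and 0.937 between the sets within a group (genes are not independent replicates). Lrig1, the gene of the surface protein used for the separation, was at 75.4 and 36.7 CPM (counts scaled to library size by the TMM method) in Lrig1- and at 221 and 129 CPM in Lrig1+ cells in set 1 and set 2. Foxp3, the defining transcription factor of regulatory T cells, was at 48.9 and 30.7 CPM against 589 and 615 CPM. The T cell genes Cd3e (453 to 632 CPM) and Cd4 (924 to 1100 CPM) were abundant in every library.

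Trac is part of every alpha chain transcript, so its level stands for alpha chain mRNA as a whole. Its counts were 36523 in Lrig1- and 36973 in Lrig1+ cells of set 1, and 68992 and 64908 in set 2. On the CPM scale the values were 763 and 711 in set 1 and 1277 and 1130 in set 2, so Lrig1+ was the lower library in each set, and the groups overlapped because the sets differed more. The log2 fold change of Lrig1+ over Lrig1- was -0.15 (SE 0.51, adjusted p = 1.00, edgeR quasi-likelihood test over all 4 libraries). Relative to the sum of the members the direction was the opposite, since Trac took 73.6% and 76.4% of member counts in Lrig1- and 75.1% and 77.8% in Lrig1+ cells, a log2 difference of 0.03. In this bulk RNA, fewer cells of a kind and less RNA per cell cannot be told apart.

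The Trav segments together were lower against Trac in Lrig1+ cells in both sets. For each 100 Trac counts there were 35.8 Trav counts in Lrig1- and 33.2 in Lrig1+ cells in set 1, and 30.9 and 28.5 in set 2. This fall was not spread over all families. The Trav14 family went from 2403 to 1778 counts in set 1 and from 4360 to 3006 in set 2 (Lrig1- first). The Trav11 family went from 420 to 137 and from 622 to 126. The Trav counts outside the Trav11 and Trav14 families were nearly level against Trac in each set. Both families were left out for their falls, which favoured a level remainder in advance, so this is a description. The remainder held families that were lower in Lrig1+ cells, such as Trav15 (267 to 192 and 291 to 199 counts). It also held families that were higher, such as Trav4 (813 to 960 and 1329 to 1476 counts). The summed level of all Trav segments was 273 and 236 CPM in set 1 and 395 and 322 CPM in set 2. The log2 ratio of these sums was -0.21 in set 1 and -0.29 in set 2, with a mean of -0.25 and an SD of 0.06 over the 2 sets. No p was computed for a sum over the members.

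Of the 129 members, 112 (Trac and 111 segments) passed edgeR's filter on low counts and entered the test over all genes. Of the 17 segments that did not, 8 were at 0 in every library. In the edgeR quasi-likelihood test without a term for the set, 0 of the 112 members were called higher and 0 lower at a Benjamini-Hochberg adjusted p of 0.05, and 0.0% of the 16123 genes were called in either direction. At an unadjusted p under 0.05 the test gave 0 members higher and 2 lower, Trav11 and Trav11d, among 674 genes higher and 227 lower. The Wald test of DESeq2 called 260 genes higher and 50 lower, none of them a member. With 2 libraries against 2, an exact permutation test cannot give a p below 0.333.

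When the set was added to the model as a term (the table block), the groups were compared within sets, and 1 residual degree of freedom was left. In this fit 14.6% of the genes tested were called higher and 12.8% lower by edgeR, while 0 members were called higher and 6 were called lower. The 6 were Trav11, Trav11d, Trav14d-1, Trav14n-1, Trav14n-3 and Trav14-1, all of 2 families. The share of members called in either direction was thus below that of all genes. With the member counts as library size, which compares shares, 3 members were still called lower (Trav11, Trav11d and Trav14d-1), where 6.64% of genes were called lower and 23.9% higher. With the set as a term, DESeq2 size factors gave 6 members lower (14.8% of genes), the DESeq2 Wald test 5 (12.2%) and no filter on low counts 2 (3.57%). The median log2 fold change of the members tested was -0.23 in both fits, against -0.04 over all genes, and 21 of the 112 members had a value above 0 in the fit without the set and 19 with it.

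Trav11 and Trav11d, the segments of the invariant NKT cell alpha chain, showed the largest differences among the 62 segments with a mean of at least 100 counts. Trav11 had 204 and 303 counts in Lrig1- cells of set 1 and set 2, and 65 and 57 counts in Lrig1+ cells. Trav11d had 204 and 307 counts against 65 and 57. The groups did not overlap for either segment, on the CPM scale (4.26 and 5.61 against 1.25 and 0.992 CPM for Trav11) or as a share of member counts (0.411% and 0.335% against 0.132% and 0.068%).

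The log2 fold change of Trav11 was -2.14 (SE 0.50, adjusted p = 0.649) in the edgeR quasi-likelihood test without the set and -2.13 (SE 0.28, adjusted p = 0.00157) with it. For Trav11d the values were -2.15 (SE 0.50, adjusted p = 0.649) and -2.14 (SE 0.28, adjusted p = 0.00157) in the same edgeR fits. Since both hold 1 signal, the Trav11 set was also summed to a single feature, which gave -2.07 (SE 0.21, adjusted p = 6.10e-04, edgeR with the set). Trav11n, the copy with the stop codon, had 12, 7, 12 and 12 counts (Lrig1- and Lrig1+ of set 1, then of set 2) and no call.

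As a share of all Trav counts, Trav11 and Trav11d together took 3.12% (Wilson 95% interval 2.84% to 3.43%) in Lrig1- and 1.06% (0.893% to 1.26%) in Lrig1+ cells of set 1. In set 2 they took 2.86% (2.65% to 3.09%) and 0.616% (0.513% to 0.740%). The intervals cover counting error only. The log2 ratio of the shares was -1.56 in set 1 and -2.21 in set 2, with a mean of -1.89 and an SD of 0.46 over the sets, so the share was lower in both sets, by more in set 2. The Lrig1- libraries differed from each other by less than either differed from the Lrig1+ library of its set.

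**Figure D1:**
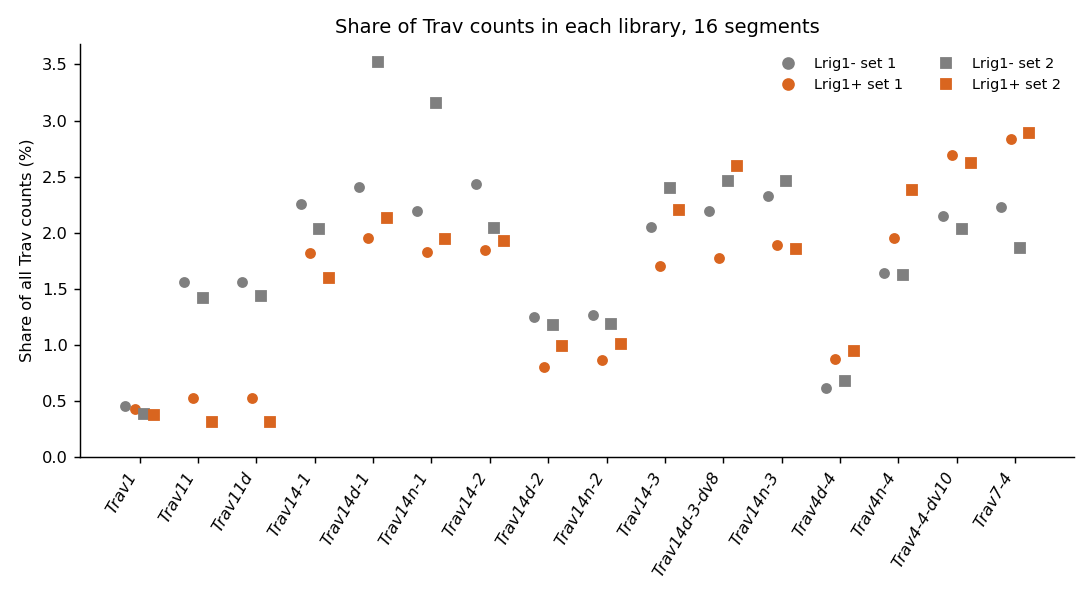
Share of all Trav counts (%, y axis) of 16 segments (x axis) in the 4 libraries, where grey marks Lrig1-, orange marks Lrig1+, circles set 1 and squares set 2, with 1 point per library and no error bar. Trav11 and Trav11d lie at 1.42% to 1.56% in the grey points and at 0.308% to 0.529% in the orange points, while the points of Trav1 lie together.

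Trav1, the segment of the invariant MAIT cell alpha chain, did not show such a difference. It had 59 and 53 counts in set 1 and 81 and 70 counts in set 2 (Lrig1- first). Its share of Trav counts was 0.4513% and 0.4317% in set 1 and 0.3798% and 0.3784% in set 2, and the log2 ratios of -0.06 and -0.01 had a mean of -0.03 with an SD of 0.04. With counts this low the interval of each share was wide (0.350% to 0.582% in Lrig1- of set 1), so a small difference was not detectable at this depth.

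The joining partners of the invariant chains, Traj18 and Traj33, were added to the genes described after values had been seen. Traj18 had 31 and 52 counts in set 1 and 65 and 29 in set 2 (Lrig1- first), so it went in opposite directions in the sets and was not called (log2 fold change -0.32, SE 0.55, adjusted p = 0.727, edgeR with the set). Traj33 had 13 and 32 counts in set 1 and 44 and 3 in set 2, also in opposite directions. At these counts and with this spread, the values cannot show whether Traj18 went with Trav11 or not.

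Some genes of other lymphocytes were, like Trav11, lower in Lrig1+ cells in both sets, though their levels in the Lrig1- libraries did not follow Trav11 throughout. Of 5 NKT and NK cell genes tested, 4 were called lower and 0 higher by edgeR with the set (12.8% and 14.6% of all genes). The summed level of the 5 was 64.4 and 83.2 CPM in Lrig1- and 14.7 and 22.2 CPM in Lrig1+ cells, with none at 0. Zbtb16, which encodes the transcription factor PLZF of NKT cells, was at 23.2 and 4.52 CPM against 5.83 and 1.31 CPM (log2 fold change -1.91, SE 0.15, adjusted p = 1.52e-04, edgeR with the set). Klrb1c, which encodes the receptor NK1.1, was at 21.9 and 46.7 CPM against 6.29 and 13.6 CPM. Klrk1, which encodes the receptor NKG2D, was at 17.3 and 23.0 CPM against 1.79 and 4.42 CPM. Ncr1, the NK receptor gene of the list that was not called, was at 0.877 and 4.65 CPM against 0.577 and 1.76 CPM.

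The gamma delta T cell list behaved alike, with 4 of 4 genes tested called lower by edgeR with the set and a summed level of 23.5 and 36.3 CPM against 8.52 and 16.04 CPM. Trdc, the delta constant gene, was at 8.75 and 18.9 CPM against 4.50 and 9.49 CPM. Both CD8 genes were called lower, and their sum was 19.5 and 97.3 CPM against 14.1 and 51.6 CPM. The B cell list had 1 of 6 called lower (61.2 and 640.2 CPM in sum against 82.1 and 333 CPM), and the myeloid list had 1 of 5 called in each direction (36.7 and 163 CPM against 37.2 and 164 CPM). In the same fit, 12.8% of all genes were called lower and 14.6% higher. The part of any of these cells in the Trav values was not tested.

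**Figure D2:**
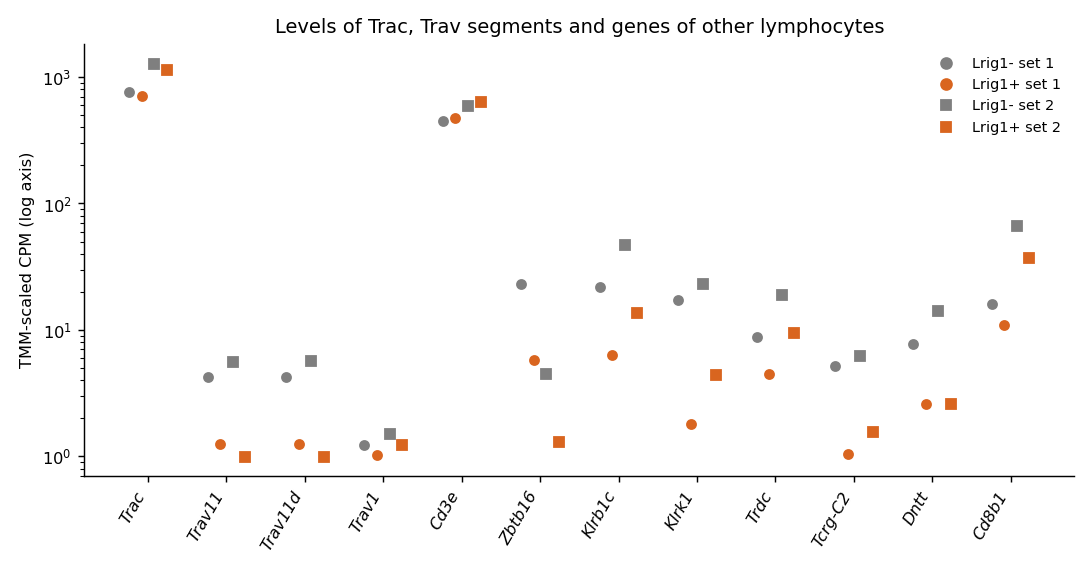
TMM-scaled CPM (y axis, log scale) of Trac, 3 Trav segments and 8 other genes (x axis) in the 4 libraries, with grey for Lrig1-, orange for Lrig1+, circles for set 1 and squares for set 2. Levels are to be read within a gene, not between genes of different length: Trav11, Klrk1, Tcrg-C2 and Dntt are lower in both orange points than in both grey points, and Trac and Cd3e are not.

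Trav14 was the family with the most counts, and its share was lower in Lrig1+ cells in both sets. Its 9 segments took 18.4% of Trav counts in Lrig1- and 14.5% in Lrig1+ cells of set 1, and 20.4% and 16.2% in set 2, so the groups did not overlap. The log2 ratio of the family's share was -0.34 in set 1 and -0.33 in set 2. All 9 segments had a lower share of member counts in Lrig1+ cells in both sets, and they were 9 of the 19 such segments among the 62 with a mean of at least 100 counts. The share of all genes lower in both sets was 24.8% when scaled by the same member counts.

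Within the family, the size of the difference depended on the set of copies and on the set of libraries. Trav14d-1 had 315 and 240 counts in set 1 and 751 and 395 in set 2 (Lrig1- first), a log2 fold change of -0.78 (SE 0.17, adjusted p = 0.0134, edgeR with the set). Its identical copy Trav14n-1 had 287 and 224 counts, then 674 and 359 (-0.75, SE 0.17, adjusted p = 0.0181). For both, the CPM values of the groups overlapped, because the Lrig1- library of set 1 (6.58 CPM for Trav14d-1) was lower than the Lrig1+ library of set 2 (6.88 CPM).

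Trav14n-3 went from 304 to 232 counts in set 1 and from 525 to 343 in set 2 (-0.61, SE 0.15, adjusted p = 0.0251, edgeR with the set), and Trav14-1 went from 295 to 223 and from 433 to 296 (-0.58, SE 0.16, adjusted p = 0.0347). The CPM values of these 2 segments did not overlap between the groups. In Trav14d-2 and Trav14n-2 the difference was larger in set 1, with log2 ratios of the share of -0.71 and -0.64 in set 1 and of -0.34 and -0.33 in set 2. Trav14d-3-dv8 had a log2 ratio of -0.39 in set 1 and of -0.01 in set 2, the smallest of the family, and its share of Trav counts alone was higher in Lrig1+ cells of set 2 (2.59% against 2.46%).

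With the copies summed, the 3 Trav14 sets were all called lower by edgeR with the set, together with Trav11 (12.5% of genes were called lower in that fit). The log2 fold change was -0.72 (SE 0.12, adjusted p = 0.00605) for Trav14-1 with its d and n copies, -0.58 (SE 0.12, adjusted p = 0.0122) for Trav14-2 and -0.47 (SE 0.10, adjusted p = 0.0122) for Trav14-3. In the same fit without the set, none was called.

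**Figure D3:**
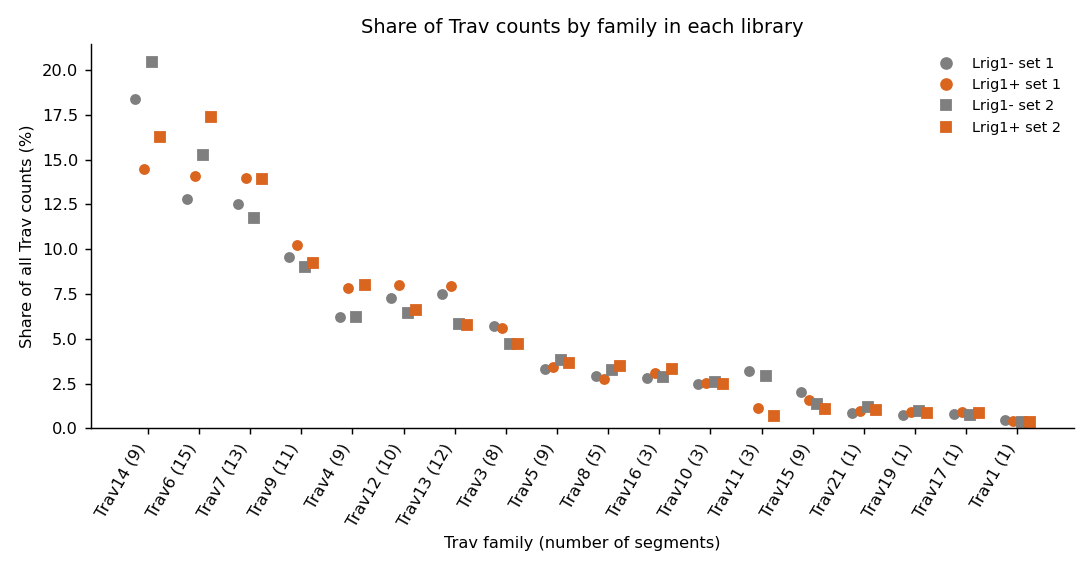
Share of all Trav counts (%, y axis) of the Trav families with at least 200 counts in all (x axis, the number of segments in brackets), with grey for Lrig1-, orange for Lrig1+, circles for set 1 and squares for set 2. The orange points of Trav14 (14.5% and 16.2%) and of Trav11 (1.12% and 0.681%) lie under the grey points, and those of Trav4 (7.82% and 7.98%) lie above them (6.22% and 6.23%).

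Trav15, a smaller family whose 9 segments all had a mean under 100 counts, took 2.04% and 1.36% of Trav counts in Lrig1- and 1.56% and 1.08% in Lrig1+ cells. Its log2 ratios of -0.39 and -0.34 were as large as those of Trav14, but its groups overlapped between the sets. Trav20, with 37 counts in all, was also lower in both sets. The shares of some other families were higher. Trav4 took 6.22% and 6.23% of Trav counts in Lrig1- and 7.82% and 7.98% in Lrig1+ cells, a log2 ratio of 0.33 in set 1 and 0.36 in set 2. Trav7 took 12.5% and 11.7% against 13.9% and 13.9%, with log2 ratios of 0.15 and 0.25. Trav6, the second family by counts, took 12.8% and 15.3% against 14.1% and 17.4%, higher within each set but overlapping between the groups. The Trav12, Trav13, Trav9 and Trav3 families had log2 ratios between -0.03 and 0.13 in both sets.

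The 8 segments with the most positive mean log2 ratio of share, among those with the same sign in both sets and a mean of at least 100 counts, were Trav4d-4, Trav7-3, Trav7d-4, Trav12n-3, Trav4n-4, Trav5d-4, Trav7-4 and Trav4-4-dv10. Trav4d-4 took 0.163% and 0.159% of member counts in Lrig1- and 0.217% and 0.210% in Lrig1+ cells, with log2 ratios of 0.41 and 0.40. Trav7-4 took 0.587% and 0.440% against 0.707% and 0.641%, with log2 ratios of 0.27 and 0.55. The mean log2 ratio of the other 6 segments lay between 0.26 and 0.39.

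None of the 8 was called by edgeR, with or without the set, and with the set the largest of their log2 fold changes on the CPM scale was 0.24 (Trav7-4, SE 0.15, adjusted p = 0.268). The groups did not overlap in share of member counts for Trav4d-4, Trav12n-3, Trav4n-4, Trav5d-4, Trav7-4 and Trav4-4-dv10, and overlapped for Trav7-3 and Trav7d-4. The 8 were picked by their rise on this same scale, so this is no separate support. Of all genes tested, 20.9% were higher without overlap when scaled alike. On the CPM scale the groups overlapped for all 8.

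The 8 segments with the most negative mean log2 ratio were Trav11, Trav11d, Trav14d-1, Trav14n-1, Trav14n-3, Trav14d-2, Trav10n and Trav14n-2, of which Trav10n alone was of another family. Trav10n had 75 and 62 counts in set 1 and 204 and 112 in set 2 (Lrig1- first), with log2 ratios of the share of -0.26 and -0.75 and no call (adjusted p = 0.130, edgeR with the set). Its copies Trav10 and Trav10d had log2 ratios of opposite sign in the sets.

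In share of member counts, 17 of the 62 segments were higher in Lrig1+ cells in both sets and 19 were lower, and the other 26 changed direction between the sets. With the Trav counts alone as the whole, Trac left out, the balance was the other way, with 24 higher and 15 lower in both sets. Over all genes of at least that mean count, 59.1% were higher and 24.8% lower in both sets when scaled by the member counts. On the CPM scale, 8 segments were higher in both sets and 36 lower, against 37.6% and 43.9% of all genes. The choice of scale thus moved the split, since the members as a whole were lower.

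Counted over the 112 members tested, the groups did not overlap on the CPM scale for 30 members that were lower in Lrig1+ cells and for 0 that were higher (11.8% and 14.3% of all genes). In share of member counts they did not overlap for 18 lower and 13 higher members (5.45% and 20.9% of all genes, scaled alike).

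**Figure D4:**
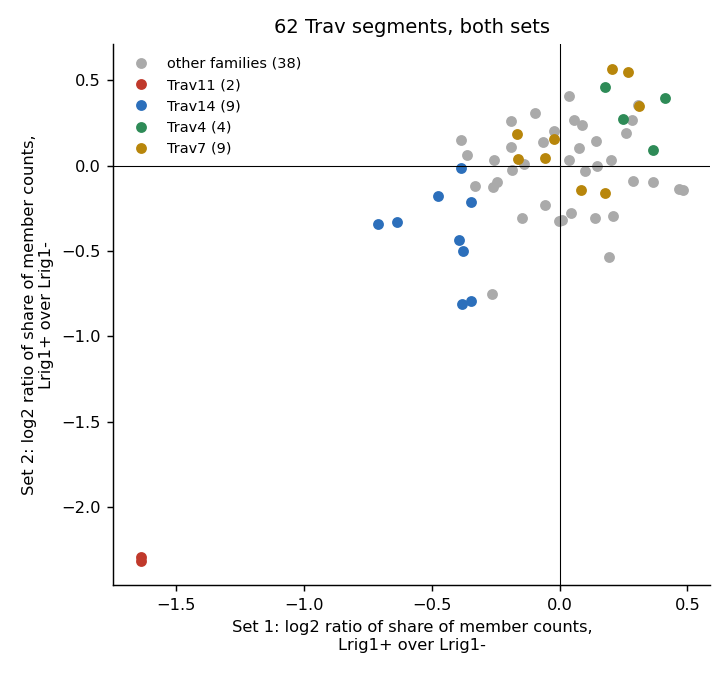
The log2 ratio of each segment's share of member counts, Lrig1+ over Lrig1-, in set 1 (x axis) and set 2 (y axis) for the 62 segments with a mean of at least 100 counts, coloured by family with the number of segments in brackets. The 2 Trav11 segments lie far to the lower left, the 9 Trav14 segments lie under 0 on both axes, and the 4 Trav4 segments lie above 0 on both.

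Across these 62 segments, the log2 ratios of set 1 and set 2 correlated at r = 0.758, given as a description since the segments share libraries and copies share reads. The value fell to 0.433 over the 60 segments without Trav11 and Trav11d, and to 0.196 over the 51 segments without the Trav11 and Trav14 families. Both families held segments with the most negative ratios in both sets, so leaving them out favoured a lower value in advance. The fall is therefore a description and no separate result.

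The libraries were also compared with each other over the log2 shares of the 62 segments. The same limit holds for the values without these families. The correlation was 0.891 between the Lrig1- libraries and 0.881 between the Lrig1+ libraries, above the values for the 2 groups of 1 set, 0.807 in set 1 and 0.743 in set 2. Without Trav11 and Trav11d the order was reversed, at 0.891 and 0.871 within groups against 0.903 and 0.894 within sets. Without the Trav11 and Trav14 families it was 0.860 and 0.863 within groups against 0.932 and 0.908 within sets. For a typical segment, the size of the log2 ratio of its share of Trav counts (the median without sign) was 0.25 and 0.23 between the groups within a set, and 0.23 and 0.20 between the sets within a group.

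No single segment dominated any library. By FPKM, which is scaled by length, the largest mean share of the summed Trav FPKM was 2.53% (Trav6-6), and the 10 largest together took 22.5%. The others of the 10 were Trav7-4 (2.47%), Trav4-4-dv10 (2.47%), Trav14d-1 (2.37%), Trav7d-2 (2.28%), Trav14n-1 (2.16%), Trav14d-3-dv8 (2.15%), Trav14n-3 (2.03%), Trav9-4 (2.03%) and Trav14-3 (1.99%). In this order the means of neighbours differed by at most 0.126 percentage points, less than the range of any of the 10 over the libraries (at least 0.307 percentage points).

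Trav6-6 had 284 and 324 counts in set 1 and 542 and 511 in set 2 (Lrig1- first), and took 0.573% and 0.600% of member counts against 0.658% and 0.613%, so the groups did not overlap in share. Its log2 fold change on the CPM scale was -0.06 (SE 0.14, adjusted p = 0.820, edgeR with the set), against 0.11 when scaled by member counts. Trav7d-2 and Trav9-4 differed by less than the spread between sets on both scales.

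The evenness of segment use differed more between the sets than between the groups. The effective number of segments (the exponential of the Shannon entropy of Trav shares) was 88.0 in Lrig1- and 86.5 in Lrig1+ cells of set 1, and 83.3 and 82.8 in set 2. The mean difference was -0.98 with an SD of 0.74 over the sets. With copies summed, the effective number of sets of copies lay between 34.0 and 35.8. Counts were found on 119 and 116 of the 128 segments in Lrig1- and on 114 and 113 in Lrig1+ cells.

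Segments nearest Trac tend to be joined first in the thymus, and later joins use segments farther away. The segments were therefore divided into 3 groups of like number by their order along the chromosome. The distal group, farthest from Trac (43 segments, 1178 to 1793 kb) took 25.0% and 25.7% of Trav counts in Lrig1- and 24.1% and 23.9% in Lrig1+ cells. The difference was -0.93 percentage points in set 1 and -1.77 in set 2, with a mean of -1.35 and an SD of 0.60. Trav11d and Trav14d-1 lie in this group. Each has the same exon as a copy nearer Trac (Trav11 and Trav14n-1). The shares of the 3 groups therefore depend on how reads were divided among copies. Trav11d went from 1.56% to 0.529% in set 1 and from 1.44% to 0.308% in set 2. Trav14d-1 went from 2.41% to 1.95% and from 3.52% to 2.14%. The falls of Trav11d and Trav14d-1 together exceeded that of the whole group in both sets. Both were named for being among the largest falls in share, so this is a description and no separate result. A link with the order of joining was not tested.

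The proximal group, nearest Trac (42 segments, 243 to 759 kb) took the largest share, 44.9% and 43.1% in Lrig1- and 45.8% and 43.2% in Lrig1+ cells. The mean difference of 0.52 percentage points was within its SD of 0.59. The middle group took 30.1% and 31.2% against 30.1% and 32.8%.

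**Figure D5:**
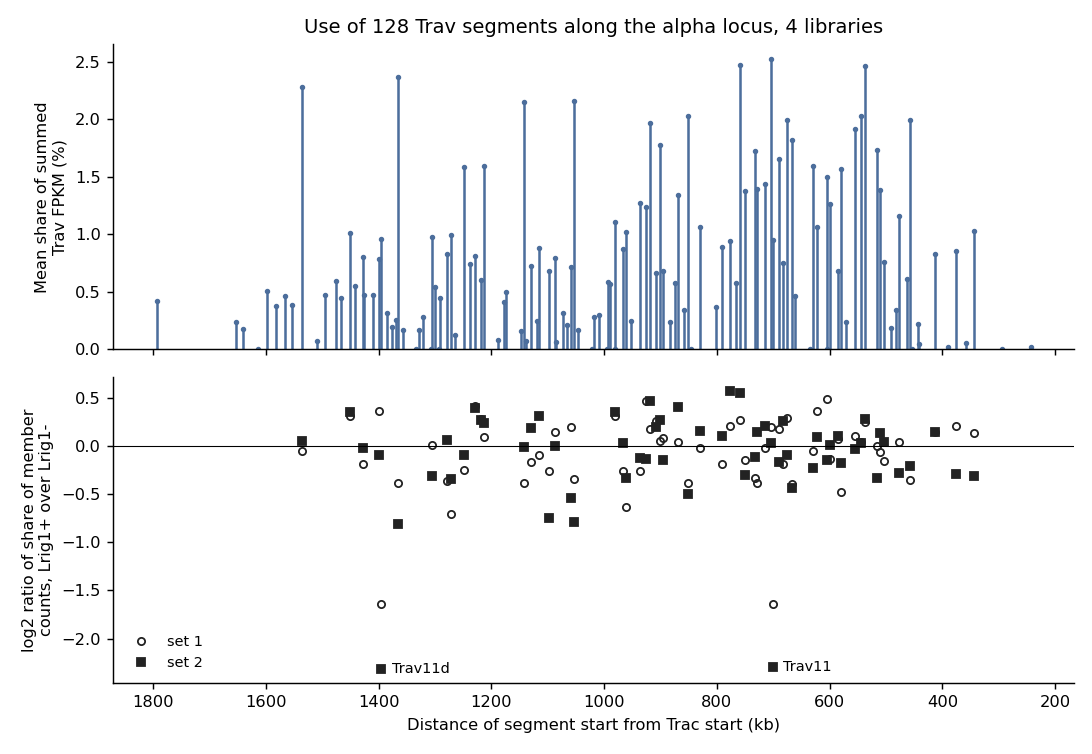
Top: mean share of the summed Trav FPKM over the 4 libraries (%, y axis) of the 128 segments against their distance from Trac (kb, x axis, Trac to the right). Bottom: log2 ratio of the share of member counts, Lrig1+ over Lrig1-, of the 62 segments with a mean of at least 100 counts in set 1 (open circles) and set 2 (filled squares), with Trav11 and Trav11d far under the others at separate places of the locus. Trav11 and Trav11d have the same exon, so reads within it cannot be given to either place.

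Grouped by the letter in their names, the 39 segments of the d kind took 25.3% and 26.3% of Trav counts in Lrig1- and 23.8% and 24.8% in Lrig1+ cells. The 34 segments of the n kind took 23.8% and 24.6% against 23.9% and 25.0%, and the 55 segments with no letter took 51.0% and 49.0% against 52.3% and 50.2%. Trav11d and Trav14d-1 are of the d kind, and each has the same exon as a copy of another kind. These shares therefore also depend on how reads were divided among copies.

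The 10 segments with dv in their names, which can serve the alpha and the delta chain, took 9.08% and 9.06% of Trav counts in Lrig1- and 8.95% and 9.70% in Lrig1+ cells, in opposite directions in the sets. The most abundant were Trav4-4-dv10 and Trav14d-3-dv8, followed by Trav6-7-dv9 with 194 and 184 counts in set 1 and 291 and 296 in set 2. Trav4-4-dv10 took 0.567% and 0.481% of member counts in Lrig1- and 0.672% and 0.581% in Lrig1+ cells.

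The 16 segments annotated as pseudogenes in RefSeq took 0.589% of Trav counts in the Lrig1- library of set 1 and 0.114% to 0.171% in the other 3. Most of the excess lay in Trav15d-3 (22 counts against 0 to 3) and Trav12-4 (17 counts against 0 to 2), which were chosen after their values were seen. 7 of the 16 were at 0 in every library.

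The alpha chain reaches the surface with the beta chain and the CD3 proteins and signals through the kinases Lck and Zap70. Of 10 genes of this list tested, 1 was called higher by edgeR with the set and 0 lower (14.6% and 12.8% of all genes). Their median log2 fold change was 0.07, against -0.04 over all genes. Zap70, the kinase that binds the activated receptor complex, went from 246 to 346 CPM in set 1 and from 246 to 358 CPM in set 2 (log2 fold change 0.52, SE 0.08, adjusted p = 0.00341). Trbc1 and Trbc2, the beta chain constant genes, had log2 fold changes of 0.09 and 0.08 and Trac had -0.14 in the same fit, none of them called.

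Of the genes that cut and join the alpha locus, Rag2 was at 0 in every library and Rag1 had at most 20 counts. Ptcra, the gene of the pre-T cell receptor alpha chain, had at most 3. Dntt, which adds bases at the joints, was at 7.75 and 14.1 CPM in Lrig1- and at 2.62 and 2.59 CPM in Lrig1+ cells (log2 fold change -2.02, SE 0.23, adjusted p = 8.08e-04, edgeR with the set). Its groups did not overlap.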

How the data were processed

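Stranded mRNA libraries were made from CD4+Lrig1+ and CD4+Lrig1- cells of the spleen. By the methods and the submitters' processing notes, the authors trimmed the reads with Trimmomatic 0.38, mapped them with HISAT2 2.1.0 and assembled them with StringTie 2.1.3b, and the notes name GRCm38. The estimated counts per transcript were made by the authors and deposited unnormalized. The FPKM values were scaled by transcript length and library by the authors. The deposited TPM values were not used in any test. The labels list 6 samples, and 4 libraries had columns naming the group. 6 further columns were not used here, since their names do not give the group. Reads that cross a joint of Trav and Traj have no unbroken match in the genome, and how reads of near-identical copies were divided is not given in the sources used here.

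Counts were summed per gene, filtered with filterByExpr, TMM-normalized and tested over all genes with edgeR 4.0.16 in R 4.3.3 (quasi-likelihood test, Benjamini-Hochberg adjustment, threshold 0.05), and the procedure was tested on simulated counts. Alternatives were DESeq2 1.42.0 (size factors, Wald test), limma 3.58.1 on log2-scaled FPKM (pseudocount 1 or 0.1), no filter, at least 10 counts in every library, summed copies, member counts as library size, a term for the set, and leaving out each library. Combinations of the set term with another setting were added after seeing the data. Shares, Wilson intervals and sequences used Python 3.11.15 and Biopython 1.88. Shares of single segments were compared where the mean count was at least 100.

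The segments named were Trac, Trav1, Trav11 and Trav11d, the 10 with the highest mean FPKM share, the 8 with the largest rise and the 8 with the largest fall in share, those called in an edgeR fit with or without the set, and the 3 most abundant dv segments. All 129 members matched RefSeq (GRCm38.p6) by gene ID with the same start and end. The members, lists and the set term were chosen with earlier results of these data known.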

Additional observations from a re-analysis of the deposited data

How the results depend on the processing

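No paired analysis was possible because the columns carry no replicate numbers by which the labels' replicates could be paired. The libraries were instead compared within each set by the table block, a term for the set that holds a library. No member was called higher under any setting run. Without the set term, 0 members were called lower under every alternative run, the leave-one-out fits included. With the set term, 6 members were called lower, and 6 with DESeq2 size factors (14.8% of genes lower), 5 with the DESeq2 Wald test (12.2%), 4 with copies summed (12.5%), 3 with member counts as library size (6.64%) and 2 with no filter (3.57%), against 12.8% of genes in the fit with the set term alone. The 3 were Trav11, Trav11d and Trav14d-1. Trac was called only by the Wald test with the set term (-0.16, adjusted p = 0.0290, DESeq2). With member counts as library size, without and with the set term, the log2 fold changes above 0 were 0.0273 and 0.0273 for Trac, 0.12 and 0.11 for Trav6-6, 0.0350 and 0.0346 for Trav9-4, and 0.0305 and 0.0397 for Trav6-7-dv9, against values below 0 on the CPM scale. That scale moved the median of all genes from -0.04 to 0.13.

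Leaving out each library in turn, with the difference of group means taken across sets, gave ranges of -0.53 to 0.28 for the Trac log2 fold change, -0.52 to 0.0144 for the summed Trav CPM, 19 to 37 segments higher and 25 to 43 lower in share, -3.37 to 1.41 for the effective number of segments, -0.76 to 1.81 percentage points for the segments nearest Trac, -1.68 to -1.01 for those farthest from it, -0.16 to 0.0896 for the Trav1 share and -2.28 to -1.497 for the share of Trav11 and Trav11d. Trav11 kept -2.28 to -1.92 and Trav11d -2.30 to -1.92. Ranges that crossed 0 were -0.36 to 0.36 for Trav6-6, -0.00922 to 0.51 for Trav7-4, -0.13 to 0.34 for Trav4-4-dv10, -0.62 to 0.26 for Trav7d-2, -0.91 to 0.13 for Trav14d-3-dv8, -0.33 to 0.0971 for Trav9-4, -0.0879 to 0.60 for Trav4d-4, -0.0445 to 0.38 for Trav12n-3, -0.24 to 0.53 for Trav4n-4, -0.34 to 0.59 for Trav5d-4, -1.22 to 0.00958 for Trav10n and -0.42 to 0.16 for Trav6-7-dv9. A left-out library leaves sets and groups unbalanced, so differences between sets enter these values. With copies summed, 9 features had a higher share in both sets and the effective number differed by -0.13. No segment reached a mean of 500 counts (the highest was 425), so that limit gave no value.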
